A study of Mus musculus with 13 samples.

Results

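The comparison described here sets the libraries labelled NLS t48 against those labelled NLS t6 in a study of mouse melanoma cell lines carrying a doxycycline-inducible construct. The 6 libraries were chosen by their titles from the 13 of the series, 3 a side, and cell line numbers 6, 7 and 16 appear once under each label. The study concerned expression of soluble adenylyl cyclase (sAC), encoded by Adcy10, in chosen microdomains of the cell, and NLS lines under doxycycline carry the microdomain label nuclear. The t48 libraries had doxycycline in the growth medium for 48 h and the t6 libraries for 6 h. The other 7 libraries are the NLS lines without doxycycline (t0, 3 libraries, the same line numbers, microdomain label none) and the LacZ lines 10 and 12 at t48 and at t0 (2 libraries each, LacZ being the gene of a bacterial beta-galactosidase). LacZ has no t6 library here, so the time between t6 and t48 could be followed in NLS lines alone, and the LacZ t48 libraries carry the microdomain label nuclear against their titles. Nothing in the labels says whether libraries came from separate cultures beyond the line number, so a p-value here reflects the spread among these libraries alone, which may be technical.

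Soluble adenylyl cyclase makes cyclic AMP (cAMP) when bicarbonate or calcium activates it, without the G proteins that drive the transmembrane cyclases. Cyclic AMP activates protein kinase A, which phosphorylates CREB, a transcription factor that binds the cAMP response element in promoters. Melanoma cells can move between a pigmented state run by Mitf and dedifferentiated, mesenchymal-like states rich in matrix and contractile gene products.

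The labels were checked against Adcy10 (ENSMUSG00000026567, GRCm38 chromosome 1, 165485183 to 165576774, plus strand), the gene whose expression the study concerned. In lines 6, 7 and 16, the order of all values per line, its level was 367, 199.8 and 0.673 CPM (a read count scaled by library size, with TMM factors) at t0, 371, 180.3 and 1.19 CPM at t6 and 339.6, 199 and 1.22 CPM at t48. The level followed the line number, high in lines 6 and 7 and near background in line 16, and the t48 and t6 values overlapped (log2 fold change -0.03, SE 1.82, adjusted p = 0.993). With lines so far apart, that test could not show a change within lines. With the cell line as a block the log2 fold change was 0.0046. Within each line Adcy10 differed little between t48 and t6, so it did not separate the labels. The results that follow are differences between libraries labelled t48 and t6. Whether reads of the construct are counted under the mouse gene is not given in the sources used here. In bulk RNA of this kind, more cells of one state and more RNA per cell cannot be told apart.

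Depth was 18902460 to 22353964 estimated reads in the 6 libraries. The markers of the pigment lineage were scarce, with a summed level of 16.2 to 19.9 CPM over 17 genes at t48 and 31.6 to 33.8 CPM at t6. In the NLS lines at t0 the sum was 10.1 to 12.0 CPM, so t6 was the high label and t48 lay above t0. Mlana, Tyrp1, Gpr143 and Oca2 had no read at t48 or t6. Mitf, the master regulator of melanocytes, was at 3.49, 3.47 and 2.76 CPM at t48 and 5.003, 4.75 and 5.35 CPM at t6 (log2 fold change -0.63, SE 0.15, adjusted p = 0.00681), and its call was lost without line 16 (adjusted p = 0.091) and with an offset for average transcript length (adjusted p = 0.141). Gpnmb, a melanosomal glycoprotein, fell with it (log2 fold change -1.04, SE 0.14, adjusted p = 9.04e-05). Not all members fell. Slc45a2, too low to be tested, was at 1.08, 0.846 and 1.11 CPM at t48 and 0.374, 0.567 and 0.229 CPM at t6. Pmel and Dct, under 1 CPM, were also higher at t48 in every line, with overlapping groups. Fibroblast markers summed to 16947 to 17915 CPM at t48 and 8984 to 10606 CPM at t6. That sum is mostly Col1a1, Col1a2 and Col3a1, described further on, while Lum had no reads. These collagens were the 3 members higher at t48 among 7 tested, and the median log2 fold change of the list was 0.09. S100a4 was lower (adjusted p = 0.000128), and with the cell line as a block 3 members were higher and 3 lower. What part of the results such cells could have was not tested. Leukocyte markers summed to 8.46 to 10.0 CPM at t48 and 13.9 to 15.2 CPM at t6, mostly Cd68, and Ptprc, Cd3e, Adgre1 and Tyrobp had no reads. Keratinocyte markers summed to at most 5.19 CPM and endothelial markers to at most 4.58 CPM in any of the 6 libraries.

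Genes at 1 CPM or more in at least 3 of the 6 libraries were tested, 11691 in all. Of these, 3534 (30.2%) passed an adjusted p of 0.05 in edgeR and are termed called, 1839 (15.7%) higher at t48 and 1695 (14.5%) lower. The changes were unequal in size, since 518 genes (4.43%) passed with at least a 2-fold difference, of which 393 genes (3.36%) were at least 2-fold higher at t48 and 125 (1.07%) at least 2-fold lower. Among the called genes 3528 of 3534 moved the same way in all 3 lines, against 7775 of 11691 (66.5%) over all tested genes. Genes were called on these same libraries, so the larger share among them follows largely from the selection. All 3 t48 libraries stood above all 3 t6 libraries for 22.3% of tested genes and below them for 21.9%, 44.2% in all. With the cell line as a block 44.4% of genes were called, 2609 genes (22.3%) were higher at t48 and 2585 (22.1%) lower. Counts of list members given below are to be read beside these shares, 15.7% and 14.5% without the block and 22.3% and 22.1% with it. Each result was also fitted without each of the 6 libraries and without each of the 3 lines, 9 leave-outs in all, and without line 6 the counts were 1222 higher and 1030 lower.

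**Figure D1:**
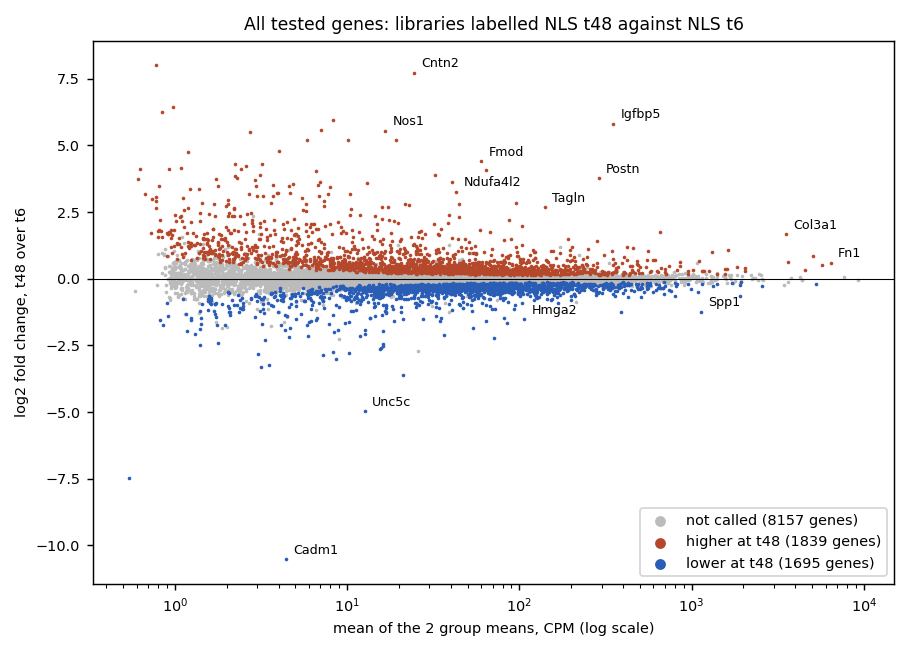
Each point is 1 of 11691 tested genes, with the mean CPM of both groups on a log x axis and the log2 fold change of t48 over t6 on the y axis. The 1839 genes higher at t48 (red) reach larger fold changes than the 1695 lower ones (blue) over most of the range of levels, and Cadm1, at 0 CPM in every t48 library, lies lowest at a fitted value that depends on the prior count.

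The leading increases were Cntn2, Spats2l, Igfbp5, Megf6, Nos1, Vat1l, Igfbp2, Dpep1, Fmod and Mest. They are the 10 largest by fold among called genes with an average log2 CPM of at least 1 and the same direction in all 3 lines. Predicted, clone and pseudogene names were left out. Cntn2, a contactin on the surface of neurons (ENSMUSG00000053024, GRCm38 chromosome 1, 132509427 to 132543256, minus strand), was at 59.5, 32.8 and 53.8 CPM at t48 and 0.281, 0.155 and 0.229 CPM at t6 in lines 6, 7 and 16 (log2 fold change 7.73, SE 0.42, adjusted p = 1.92e-07). Igfbp5, a secreted binding protein of insulin-like growth factors (IGF) (ENSMUSG00000026185, GRCm38 chromosome 1, 72857932 to 72874884, minus strand), was at 797, 674 and 593 CPM at t48 and 16.1, 10.5 and 9.83 CPM at t6 (log2 fold change 5.82, SE 0.32, adjusted p = 1.73e-06). The lowest t48 value stood far above the highest t6 value for both genes. Nos1, the neuronal nitric oxide synthase (ENSMUSG00000029361, GRCm38 chromosome 5, 117781032 to 117958840, plus strand), was at 34.2, 32.9 and 30.7 CPM at t48 and 0.655, 0.671 and 0.732 CPM at t6 (log2 fold change 5.56, SE 0.18, adjusted p = 1.98e-10). Its 3 lines differed little under either label. Igfbp2, another IGF-binding protein, averaged 37.4 ± 2.53 CPM at t48 and 0.993 ± 0.326 CPM at t6 (SD, n = 3 each, as for all such values). Fmod, fibromodulin, a small proteoglycan of collagen fibrils, averaged 115 ± 3.45 CPM at t48 and 5.38 ± 1.91 CPM at t6 (log2 fold change 4.41). Mest, a gene expressed from the paternal allele, was at 88.1, 199 and 76.6 CPM at t48 and 7.06, 9.70 and 4.80 CPM at t6 (log2 fold change 4.09, SE 0.40, adjusted p = 7.52e-05), and line 7 was the highest line under both labels. Dpep1, a membrane dipeptidase, averaged 11.3 ± 1.82 CPM at t48 and 0.302 ± 0.0629 CPM at t6. Spats2l, Megf6 and Vat1l completed the 10 with log2 fold changes of 5.95, 5.56 and 5.22, and each was under 1 CPM in all 3 t6 libraries.

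The 10 leading decreases by the same rule were Unc5c, Gbp2b, Ramp3, Etv1, Hgf, Prl2c2, Areg, Padi2, Dynap and Adgrl3. Unc5c, a receptor for the guidance cue netrin (ENSMUSG00000059921, GRCm38 chromosome 3, 141465216 to 141834924, plus strand), was at 0.801, 0.979 and 0.530 CPM at t48 and 24.4, 26.3 and 23.2 CPM at t6 (log2 fold change -4.97, SE 0.22, adjusted p = 5.22e-09). Hgf, the ligand of the Met receptor, was at 0.801, 0.979 and 0.424 CPM at t48 and 5.94, 6.29 and 3.84 CPM at t6 (log2 fold change -2.83, SE 0.41, adjusted p = 0.000369). Etv1, an ETS transcription factor, was at 1.23, 2.71 and 1.22 CPM at t48 and 10.5, 19.8 and 7.78 CPM at t6 (log2 fold change -2.85, SE 0.57, adjusted p = 0.00511). Groups did not overlap for these 3 genes, and Etv1 was highest in line 7 under both labels. Areg, which encodes the EGF receptor ligand amphiregulin (ENSMUSG00000029378, GRCm38 chromosome 5, 91139599 to 91148432, plus strand), was at 2.26, 2.89 and 1.27 CPM at t48 and 15.4, 19.3 and 8.83 CPM at t6 (log2 fold change -2.73, SE 0.55, adjusted p = 0.00515). Ramp3, a partner protein that turns the calcitonin receptor-like receptor into an adrenomedullin receptor, was at 1.56, 3.07 and 0.848 CPM at t48 and 14.1, 23.3 and 8.55 CPM at t6 (log2 fold change -3.03, adjusted p = 0.0104), and its call was lost without line 6 (adjusted p = 0.0718). Line 16 was the lowest line for Areg and Ramp3 under both labels. Padi2, an enzyme that converts arginine to citrulline in proteins, averaged 4.28 ± 1.14 CPM at t48 and 26.7 ± 2.57 CPM at t6. Adgrl3, the adhesion receptor latrophilin 3, averaged 4.80 ± 0.978 CPM at t48 and 27.6 ± 2.64 CPM at t6. Dynap fell by 2.59 on the log2 scale. Gbp2b, an interferon-inducible GTPase, and Prl2c2, a proliferin, had log2 fold changes of -3.25 and -2.80, but both belong to families of near-identical copies among which the quantification shares reads, so their values are uncertain.

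**Figure D2:**
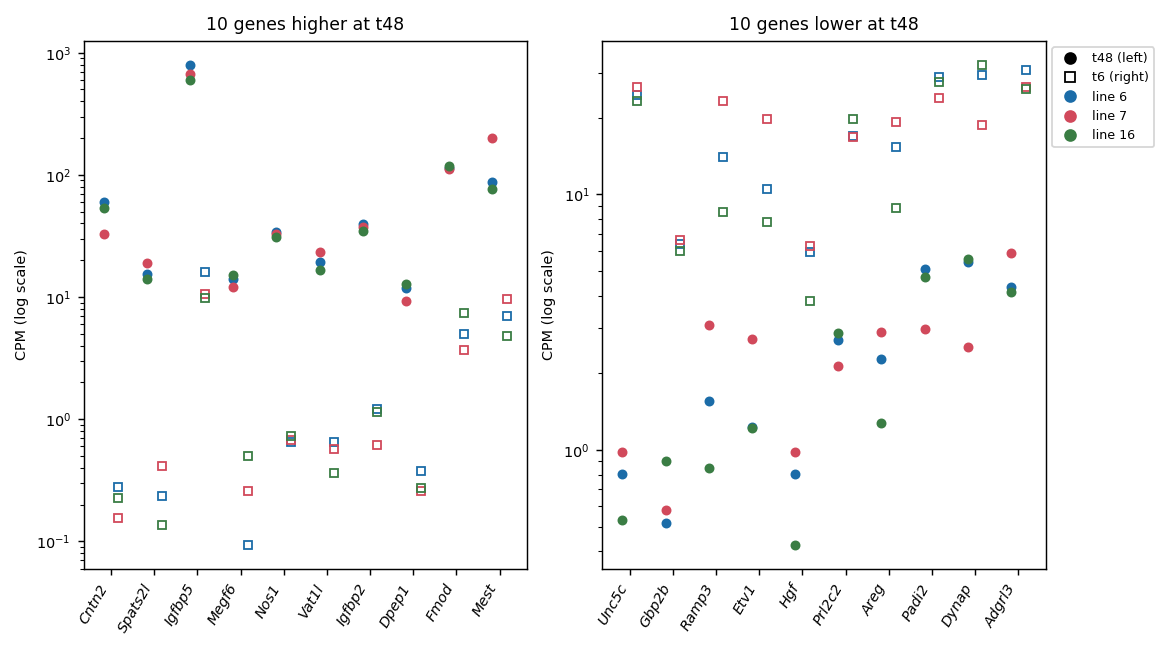
CPM on a log y axis in each of the 6 libraries for the 10 largest increases (left panel) and the 10 largest decreases (right panel), with filled circles for t48, open squares for t6 and a colour for each line. Igfbp5 lies at 593 to 797 CPM at t48 and 9.83 to 16.1 CPM at t6. None of the 20 genes has overlapping groups, but they were picked by fold change among called genes that moved the same way in every line. Groups were apart for 98.3% of called genes and 44.2% of all tested genes.

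A few genes were near absence under one label. Cadm1, an adhesion molecule of the immunoglobulin family (ENSMUSG00000032076, GRCm38 chromosome 9, 47530173 to 47857637, plus strand), had no reads in any t48 library and was at 10.2, 7.74 and 8.51 CPM at t6, at least 61.0-fold lower at t48 against a floor of 3 counts per library. At t0 it was at 0.0888, 0 and 0 CPM, so of the 3 labels t6 alone had more than a trace. Igf2, an imprinted growth factor of the fetus, was at 7.96, 7.25 and 7.95 CPM at t48 and 0.234, 0.309 and 0.274 CPM at t6 (log2 fold change 4.80, SE 0.24, adjusted p = 1.29e-08). It was one of 5 genes, with Cntn2, Dpep1, Spats2l and Atp8b1, that had at least 5 CPM in every t48 library and at most 0.5 CPM in every t6 library, a listing made after the values were seen. Cadm1 was the 1 gene with the opposite pattern.

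The IGF axis, the growth factors, their receptors and the binding proteins that hold them, had 8 of 15 tested members higher at t48 and 2 lower, with a median log2 fold change of 0.40 against -0.00017 over all tested genes. The ligand Igf2 and the binding proteins Igfbp5 and Igfbp2 rose as given above. Igfbp3, a further binding protein, was at 738, 857 and 662 CPM at t48 and 348, 432 and 305 CPM at t6 (log2 fold change 1.06, SE 0.15, adjusted p = 0.000361). Irs1, the adaptor that couples IGF receptors to PI3 kinase, averaged 123 ± 3.24 CPM at t48 and 69.2 ± 4.96 CPM at t6 (log2 fold change 0.84, SE 0.07, adjusted p = 8.09e-07). Igf2bp3, an RNA-binding protein of the fetus, went the other way. It was at 3.77, 2.67 and 3.76 CPM at t48 and 14.7, 12.9 and 12.8 CPM at t6 (log2 fold change -1.99, SE 0.28, adjusted p = 0.000159), against at most 0.336 CPM in any t0 library. Igfbp7 was lower at t48 with an adjusted p of 0.0084, which became 0.0963 without line 6.

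Many matrix genes were higher at t48 than at t6. Against t0, the median log2 fold changes at t6 and at t48 were -0.25 and 0.70 for fibrillar and network collagens. They were -0.19 and 0.14 for collagen processing enzymes and -0.19 and 0.07 for matricellular and proteoglycan genes. For basement membrane genes they were 0.11 and 0.47. These comparisons share libraries with that of t48 and t6. Of 17 tested fibrillar and network collagens 12 were higher at t48 and 1 lower (median log2 fold change 0.75), where 15.7% and 14.5% of all tested genes were. Col3a1, a fibrillar collagen of soft tissue (ENSMUSG00000026043, GRCm38 chromosome 1, 45311538 to 45349706, plus strand), was at 5186, 5641 and 5235 CPM at t48 and 1681, 1723 and 1626 CPM at t6 (log2 fold change 1.67, SE 0.06, adjusted p = 1.98e-10), with the 3 lines close together under each label. Col1a1, the main chain of type I collagen, was at 6135, 6594 and 6909 CPM at t48 and 3573, 2974 and 4282 CPM at t6 (log2 fold change 0.86, SE 0.14, adjusted p = 0.000738). Its partner chain Col1a2 averaged 4411 ± 134 CPM at t48 and 2874 ± 262 CPM at t6 (log2 fold change 0.62). Per transcript length, Col3a1 averaged 2024 ± 63.8 TPM at t48 and 659 ± 69.7 TPM at t6, and Col1a1 averaged 2516 ± 79.98 TPM at t48 and 1402 ± 217 TPM at t6. The beaded-filament chains Col6a2 and Col6a1 rose by log2 fold changes of 1.48 and 0.75. Col18a1, a collagen of basement membranes, was the member that fell, at 41.2, 46.2 and 41.97 CPM at t48 and 112, 128 and 119 CPM at t6 (log2 fold change -1.47, SE 0.09, adjusted p = 1.62e-07).

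Enzymes that build collagen moved in the same direction. Of 24 tested, 16 were higher at t48 and 3 lower (median log2 fold change 0.45). Plod2, which hydroxylates the lysines used for cross-links, was at 266, 247 and 251 CPM at t48 and 142, 132 and 139 CPM at t6 (log2 fold change 0.89, SE 0.05, adjusted p = 3.13e-08). P4ha2, a subunit of prolyl hydroxylase, averaged 268 ± 32.2 CPM at t48 and 125 ± 6.40 CPM at t6, and Adamts2, which trims the ends of procollagen, averaged 73.9 ± 1.71 CPM at t48 and 28.7 ± 3.39 CPM at t6. Bmp1, another procollagen-trimming protease counted with the BMP genes, rose by a log2 fold change of 0.76 (SE 0.09). Loxl3, of the lysyl oxidase family, was lower at t48 (log2 fold change -0.58, SE 0.06). The other 2 lower members, P3h2 and Tgm2, lost their calls without line 6 or 16, without either library of line 6, without the t48 library of line 7 or without the t6 library of line 16, and 1 member was then lower.

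Basement membrane genes had 7 of 12 tested members higher and none lower at t48 (median log2 fold change 0.43), and 2 were lower with the cell line as a block. Lama2, a laminin chain of muscle basement membrane, was at 4.57, 4.72 and 4.45 CPM at t48 and 0.421, 0.206 and 0.137 CPM at t6 (log2 fold change 4.13, SE 0.25, adjusted p = 8.2e-08). Nid2, a linker of laminin to collagen networks, averaged 282 ± 33.3 CPM at t48 and 124 ± 5.09 CPM at t6. Lama4, the laminin chain of vessels and fat, averaged 211 ± 17.7 CPM at t48 and 102 ± 6.26 CPM at t6, and its t0 mean of 196 ± 10.4 CPM lay near that at t48.

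Among matricellular and proteoglycan genes, secreted modifiers of the matrix, 17 of 28 tested were higher at t48 and 3 lower (median log2 fold change 0.63). Thbs2, a thrombospondin that binds matrix and receptors, was at 1051, 957 and 1036 CPM at t48 and 320.0, 281 and 304 CPM at t6 (log2 fold change 1.75, SE 0.06, adjusted p = 1.98e-10). Fndc1 was at 11.1, 13.6 and 12.5 CPM at t48 and 0.795, 0.825 and 0.640 CPM at t6 (log2 fold change 4.03, SE 0.17, adjusted p = 8.02e-09), and its t0 values of 14.1, 14.2 and 14.4 CPM were near those at t48. Fn1, fibronectin, averaged 7762 ± 279 CPM at t48 and 5116 ± 741 CPM at t6 (log2 fold change 0.60, SE 0.11, adjusted p = 0.00144). Sparc, a collagen-binding glycoprotein, averaged 6705 ± 363 CPM at t48 and 4709.9 ± 128 CPM at t6 (log2 fold change 0.51, SE 0.05, adjusted p = 1.07e-05). Spp1, which encodes osteopontin, fell to 674, 732 and 622 CPM at t48, against 1446, 1985 and 1360.5 CPM at t6 (log2 fold change -1.24, SE 0.20, adjusted p = 0.00122), and line 7 was its highest line under both labels. Ltbp2, of the latent TGF-beta binding family, fell by 0.59 on the log2 scale. Bgn, the proteoglycan biglycan, averaged 2298 ± 49.6 CPM at t48 and 2805 ± 247 CPM at t6 with an adjusted p of 0.00648, which became 0.076 without line 6.

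**Figure D3:**
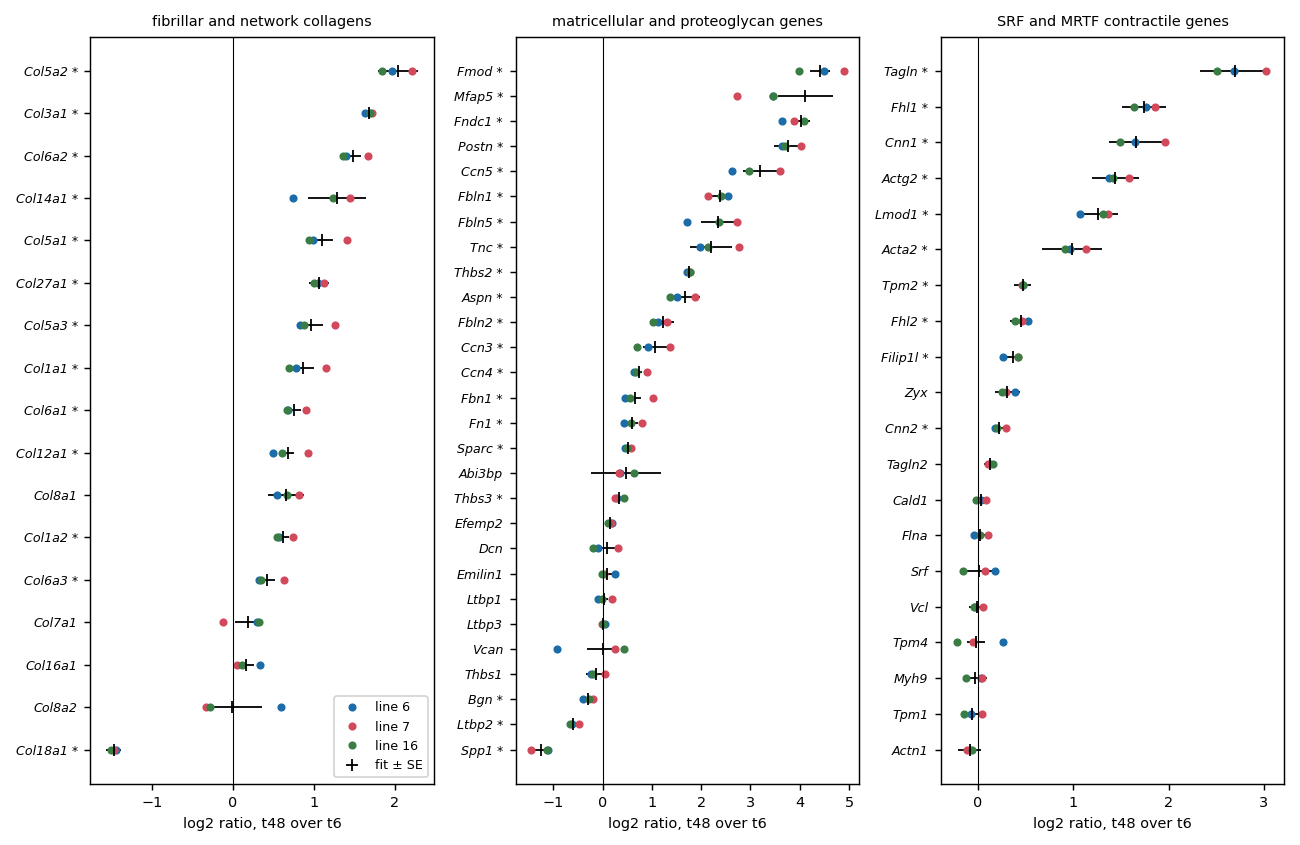
Log2 ratios of t48 over t6 for every tested collagen (left), matricellular or proteoglycan gene (middle) and SRF or MRTF contractile gene (right), with a coloured point for each line, a black tick for the fitted value and a bar for its SE, and an asterisk for adjusted p under 0.05. The ratios were taken after adding 0.1 CPM, and Col18a1, Spp1, Ltbp2 and Bgn are the called genes left of 0.

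Matrix proteases and their inhibitors had 7 of 19 tested members higher and 3 lower at t48 (median log2 fold change 0.39). These are 36.8% and 15.8%, against 15.7% and 14.5% of all genes. With the cell line as a block 12 were higher (63.2%, against 22.3% of all genes). The aggrecan-cutting enzymes Adamts5 and Adamts1 rose by log2 fold changes of 1.55 (SE 0.11) and 1.21 (SE 0.10). Mmp2, a gelatinase, averaged 765 ± 40.1 CPM at t48 and 468 ± 24.1 CPM at t6. Mmp9, the other gelatinase, was at 3.06, 3.03 and 4.03 CPM at t48 and 8.98, 9.39 and 11.3 CPM at t6 (log2 fold change -1.56, SE 0.17, adjusted p = 1.72e-05), against 1.86, 1.70 and 1.30 CPM at t0. The inhibitors Timp2 and Timp1 averaged 1497 ± 38.3 and 392 ± 25 CPM at t48, against 2344 ± 218 and 534 ± 40.7 CPM at t6 (adjusted p = 2.42e-05 and 0.000827). Mmp2 and its inhibitor Timp2 thus moved in opposite directions.

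Genes of the contractile cytoskeleton that serum response factor (SRF) and its cofactor MRTF switch on had 10 of 20 tested members higher and none lower at t48 (median log2 fold change 0.27). Tagln, an actin-binding protein of smooth muscle (ENSMUSG00000032085, GRCm38 chromosome 9, 45929619 to 45936058, minus strand), was at 256, 194 and 278 CPM at t48 and 39.7, 23.9 and 48.8 CPM at t6 (log2 fold change 2.69, SE 0.36, adjusted p = 0.000583). In the LacZ lines 10 and 12 Tagln was at 107 and 131 CPM at t48 and 21.1 and 28.1 CPM at t0. That comparison is t48 against t0 (log2 fold change 2.27, adjusted p = 0.00875), since LacZ has no t6 library. Fhl1, a LIM protein of muscle, was at 111, 89.7 and 112 CPM at t48 and 32.7, 24.7 and 35.9 CPM at t6 (log2 fold change 1.74, SE 0.23, adjusted p = 0.000376). Lmod1, an actin filament nucleator, averaged 34.1 ± 5.63 CPM at t48 and 14.2 ± 1.84 CPM at t6 (log2 fold change 1.26, SE 0.21, adjusted p = 0.001). Over the list the median log2 fold change of LacZ t48 against LacZ t0 was 0.40. In the NLS lines the list median was 0.44 for t48 against t0 and 0.16 for t6 against t0. These NLS comparisons share libraries with that of t48 and t6. The cytoplasmic actin gene Actg1 was lower at t48, averaging 4912 ± 279 CPM at t48 and 5635 ± 475 CPM at t6 (adjusted p = 0.0451), a call lost in 7 of 9 leave-outs, with adjusted p-values up to 0.182 without the t6 library of line 16, and kept without the t48 library of line 16 or the t6 library of line 6 alone.

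SRF binds a site called the CArG box, and promoter windows from RefSeq (GRCm38.p6), 250 bases before to 50 after each start, were searched for it. It was found in 1.63% of 32851 windows and in 8 of the 24 windows of list genes, which belong to 7 of the 20 list genes in the table. The list holds genes chosen as SRF and MRTF targets, so this share is no test of it. Of the 10 members higher at t48, 8 are in the table and 4 of them, Fhl1, Fhl2, Cnn2 and Filip1l, hold the box. Fhl2, Cnn2 and Filip1l are named for their box, and their log2 fold changes were 0.45 (adjusted p = 0.00863), 0.22 (adjusted p = 0.0381) and 0.37 (adjusted p = 0.011). These calls were not firm, since that of Cnn2 was lost in 6 of 9 leave-outs (adjusted p = 0.175 without line 7), that of Filip1l in 3 (0.0547 without line 16) and that of Fhl2 in 1 (0.0856 without line 6). The stretches below show the box in capitals with up to 45 bases on each side, 5′ to 3′ on the gene's strand, so that its place and its flanks can be compared among genes that moved together. They lie at chrX:56779536-56779635 (plus strand, Fhl1), chr1:43163962-43164037 (minus strand, Fhl2), chr10:79988499-79988598 (plus strand, Cnn2) and chr16:57549135-57549234 (plus strand, Filip1l).
Fhl1: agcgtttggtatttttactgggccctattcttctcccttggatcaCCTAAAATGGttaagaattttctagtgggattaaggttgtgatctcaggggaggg
Fhl2: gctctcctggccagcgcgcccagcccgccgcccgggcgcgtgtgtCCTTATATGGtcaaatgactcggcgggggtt
Cnn2: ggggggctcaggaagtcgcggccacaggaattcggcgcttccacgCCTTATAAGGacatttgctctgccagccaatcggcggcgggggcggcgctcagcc
Filip1l: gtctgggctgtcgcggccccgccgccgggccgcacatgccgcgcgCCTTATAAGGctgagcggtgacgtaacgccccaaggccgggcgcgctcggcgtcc
The box of Cnn2 and that of Filip1l have the same letters. A second start of Fhl2 also has a box. A match describes the letters in the window and is not a measured site or a cause.

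YAP and TAZ, the coactivators held back by the Hippo pathway, had 8 of 23 tested target genes higher and 3 lower at t48 (median log2 fold change 0.13). With the cell line as a block 12 were higher and 5 lower (52.2% and 21.7%, against 22.3% and 22.1% of all genes). Without line 6, without line 7 or without the t48 library of line 6, 5 were higher. Amotl2, a feedback inhibitor of YAP, averaged 134 ± 9.24 CPM at t48 and 86.9 ± 8.92 CPM at t6 (log2 fold change 0.63, SE 0.08, adjusted p = 4.13e-05). F3, which encodes tissue factor, rose by a log2 fold change of 0.94 (SE 0.16). Ccn2, the classical target, was at 386, 299 and 540.0 CPM at t48 and 138, 88.97 and 234 CPM at t6 (log2 fold change 1.41, SE 0.41, adjusted p = 0.0303). Its groups did not overlap, but the lines differed widely, and the call was lost without line 6 (adjusted p = 0.143), without line 7, and without any of 4 single libraries, those of line 6 at either label, line 7 at t6 and line 16 at t48. With the 6 libraries alone in the fit its adjusted p was 0.0934. Ccn1, its close relative, was at 187, 226 and 255 CPM at t48 and 172, 171 and 250.1 CPM at t6 with overlapping groups (adjusted p = 0.541, and 0.0202 with the cell line as a block). Axl, a receptor tyrosine kinase, averaged 327 ± 13.2 CPM at t48 and 468 ± 14.6 CPM at t6 (log2 fold change -0.52, SE 0.05, adjusted p = 4.02e-06). Myof and Dock5 were the other lower members, with log2 fold changes of -0.41 and -0.30. Yap1 itself averaged 81.9 ± 2.42 CPM at t48 and 83.8 ± 2.19 CPM at t6 (adjusted p = 0.647).

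Output and feedback genes of the ERK pathway had 13 of 21 tested members lower and 1 higher at t48 (median log2 fold change -0.47). Hmga2, a chromatin architectural protein (ENSMUSG00000056758, GRCm38 chromosome 10, 120361275 to 120476469, minus strand), was at 54.2, 56.7 and 54.5 CPM at t48 and 144, 175 and 155 CPM at t6 (log2 fold change -1.52, SE 0.10, adjusted p = 2.07e-07). Ccnd1, cyclin D1, was at 592, 689 and 592 CPM at t48 and 914, 1034 and 977 CPM at t6 (log2 fold change -0.64, SE 0.07, adjusted p = 2.27e-05). Epha2, an ephrin receptor, averaged 61.1 ± 2.45 CPM at t48 and 112 ± 7.10 CPM at t6. Fosl1, an AP-1 subunit, rested at 127 ± 12.3 CPM at t48 and 204 ± 19.3 CPM at t6 (log2 fold change -0.68, SE 0.09, adjusted p = 0.000105). Spry1, an inhibitor of receptor tyrosine kinase signalling, was the member that rose, at 5.56, 4.63 and 5.83 CPM at t48 and 1.40, 1.19 and 1.01 CPM at t6 (log2 fold change 2.15, SE 0.31, adjusted p = 0.000234). Over the list the median log2 fold change was 0.40 for t6 against t0 and -0.11 for t48 against t0, comparisons that share libraries with that of t48 and t6.

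The EGF and ErbB system had 4 of 8 tested members lower and 1 higher, and 2 lower without line 6. Beside Areg, the ligand Ereg averaged 4.59 ± 0.851 CPM at t48 and 9.99 ± 2.23 CPM at t6 (adjusted p = 0.00605, 0.0598 without line 6). Errfi1, a feedback inhibitor of the receptor, was at 166, 168 and 161 CPM at t48 and 274, 242 and 252 CPM at t6 (log2 fold change -0.64, SE 0.06, adjusted p = 6.21e-06). The ErbB3 and ErbB4 ligand Nrg1 rose, averaging 82.8 ± 5.34 CPM at t48 and 52.6 ± 3.30 CPM at t6 (log2 fold change 0.65, SE 0.07, adjusted p = 1.29e-05). Of 15 PDGF, FGF and HGF genes, 4 were lower and 2 higher (26.7% and 13.3%, against 14.5% and 15.7% of all genes). With the cell line as a block 7 were lower (46.7%, against 22.1% of all genes). Of the higher pair, Vegfa lost its call without any 1 line (adjusted p = 0.138 without line 6), without the t48 library of line 6 or without the t6 library of line 7 or 16. Fgf2, basic fibroblast growth factor, averaged 11 ± 1.02 CPM at t48 and 31.04 ± 4.53 CPM at t6 (log2 fold change -1.50, SE 0.11, adjusted p = 6.3e-07). Vegfc, a lymphatic growth factor, fell by 0.97 on the log2 scale. Fgf21, a stress-induced hormone, rose to 2.40, 2.05 and 3.02 CPM at t48, against 0.795, 0.619 and 1.10 CPM at t6 (log2 fold change 1.55, SE 0.28, adjusted p = 0.00102).

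Immediate early genes had 4 of 18 tested members higher and 5 lower (22.2% and 27.8%, against 15.7% and 14.5% of all genes). Only 2 or fewer were higher without line 6, 7 or 16 or without the t6 library of line 7. Egr3 and Egr1, zinc-finger factors induced by growth signals, averaged 9.27 ± 0.749 and 49.9 ± 6.97 CPM at t48, against 28.1 ± 1.67 and 84.3 ± 4.42 CPM at t6 (adjusted p = 4.29e-07 and 2.85e-05). Klf10, a TGF-beta early response factor, fell by 0.40 on the log2 scale, while Ier5 rose by 0.63. Fos was at 2.83, 3.03 and 2.23 CPM at t48 and 1.36, 1.39 and 1.46 CPM at t6 (adjusted p = 0.00466, 0.0549 without line 6 and 0.0513 without line 7).

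Target genes of cAMP and CREB, the pathway the enzyme feeds, had 7 of 24 tested members higher and 3 lower at t48 (29.2% and 12.5%, against 15.7% and 14.5% of all genes, median log2 fold change 0.23). With the cell line as a block 12 were higher and 5 lower (50% and 20.8%, against 22.3% and 22.1% of all genes), and without line 7, 3 were higher. Per2, a clock gene, averaged 34.2 ± 3.43 CPM at t48 and 21.8 ± 1.997 CPM at t6 (log2 fold change 0.65, SE 0.10, adjusted p = 0.000364). Btg2, an antiproliferative gene, was at 9.002, 11.2 and 8.001 CPM at t48 and 4.26, 4.33 and 5.67 CPM at t6 (log2 fold change 0.98, SE 0.16, adjusted p = 0.000387). Crispld2, a secreted protein, was at 3.16, 1.96 and 3.18 CPM at t48 and 0.748, 0.567 and 1.23 CPM at t6 (log2 fold change 1.68, SE 0.32, adjusted p = 0.00129). Areg, Egr1 and Rgs2 were the lower members, and the call of Rgs2 (adjusted p = 0.0365) was lost in 8 of 9 leave-outs, with adjusted p-values up to 0.148 without line 7. Nr4a1, an orphan nuclear receptor, was at 11.3, 8.77 and 3.87 CPM at t48 and 12.9, 7.79 and 5.85 CPM at t6 (adjusted p = 0.879). Crem, whose short ICER form feeds back on CREB, was at 2.07, 2.09 and 2.12 CPM at t48 and 2.90, 2.58 and 2.38 CPM at t6 (adjusted p = 0.196). Neither passed the test.

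The cAMP response element was searched in the same RefSeq windows as the palindrome TGACGTCA, which reads the same on both strands. It occurred in 1.79% of 32851 windows and in 3 of the 31 windows of list genes. Those 3 belong to Btg2, Dusp1 and Areg, of the 20 list genes in the table. All 3 are among the 10 called members, of which 7 are in the table. The list holds genes chosen as targets of cAMP and CREB, so these shares are no test of it. Dusp1, a phosphatase that inactivates MAP kinases, is named for its element and was at 52.6, 51.9 and 47 CPM at t48 and 38.7, 27.5 and 32.7 CPM at t6 (log2 fold change 0.61, SE 0.17, adjusted p = 0.0149), a call lost without line 7 (adjusted p = 0.113), without its t6 library or without line 16. Of these genes Btg2 and Dusp1 were higher at t48 and Areg lower, so the same 8 letters stand in promoters that moved in opposite directions, as the stretches with the element in capitals show. They lie at chr1:134079269-134079366 (minus strand, Btg2), chr17:26508563-26508660 (minus strand, Dusp1) and chr5:91139493-91139590 (plus strand, Areg).
Btg2: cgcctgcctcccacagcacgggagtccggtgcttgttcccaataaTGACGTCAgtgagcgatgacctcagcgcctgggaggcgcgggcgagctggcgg
Dusp1: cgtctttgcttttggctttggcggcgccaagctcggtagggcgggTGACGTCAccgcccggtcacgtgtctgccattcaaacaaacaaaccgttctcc
Areg: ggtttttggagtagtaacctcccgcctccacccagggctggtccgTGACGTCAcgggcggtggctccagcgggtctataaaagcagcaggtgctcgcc
The first base of the element lies 166, 143 and 61 bases before the start in Btg2, Dusp1 and Areg. As for the CArG box, a match describes letters and is not a measured site or a cause.

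Machinery that makes, senses and breaks down cAMP had 11 of 34 tested members lower and 3 higher at t48 (median log2 fold change -0.16). With the cell line as a block 16 were lower and 6 higher (47.1% and 17.6%, against 22.1% and 22.3% of all genes). The lower count was 6 without line 6 or line 16, and 7 without line 7 or without the t48 library of line 16. Prkar2b and Prkar2a, the type II regulatory subunits of protein kinase A, averaged 44.7 ± 3.40 and 78.95 ± 3.48 CPM at t48, against 70.98 ± 5.11 and 99.2 ± 1.70 CPM at t6 (adjusted p = 9.15e-05 and 0.00102). Pde4a, a phosphodiesterase that degrades cAMP, was at 18.9, 18.4 and 19.7 CPM at t48 and 25.5, 25.2 and 27.6 CPM at t6 (log2 fold change -0.46, SE 0.07, adjusted p = 0.000436). Gnas, which encodes the stimulatory G protein, averaged 912 ± 33.1 CPM at t48 and 732 ± 46.2 CPM at t6 (log2 fold change 0.32, SE 0.06, adjusted p = 0.00143). Adcy3, a transmembrane cyclase, rose by a log2 fold change of 0.29 (SE 0.07). Popdc3, a cAMP-binding membrane protein of muscle, was at 19.3, 19.98 and 16.4 CPM at t48 and 13.5, 12.3 and 10.9 CPM at t6, and at 26.2, 26.6 and 24.6 CPM at t0.

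**Figure D4:**
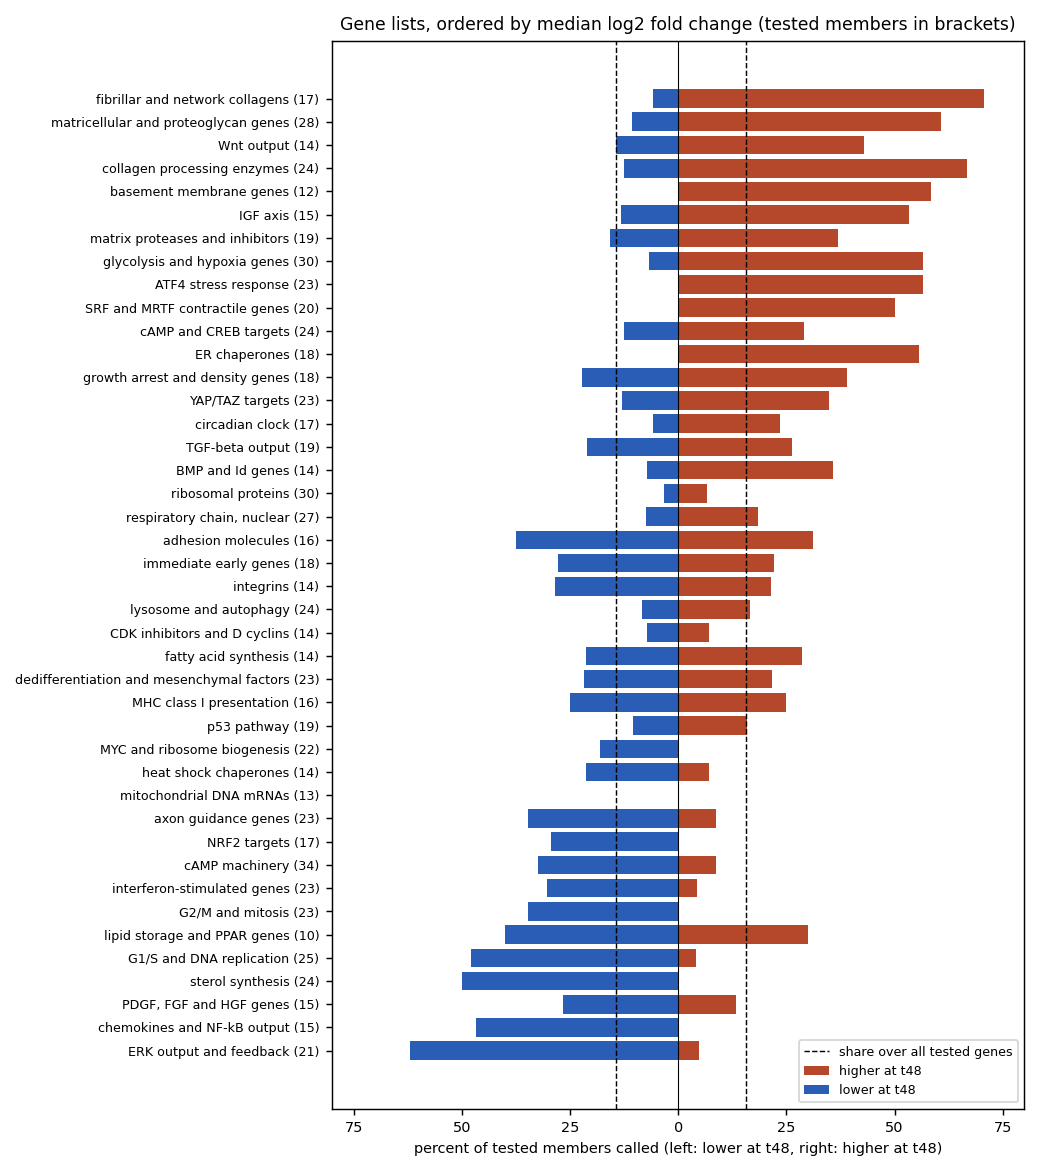
For each list with at least 10 tested members, the bar to the right gives the percent of tested members higher at t48 and the bar to the left the percent lower, with lists ordered by median log2 fold change. Dashed lines mark 15.7% and 14.5%, the shares over all tested genes. The fibrillar collagens stand at the top with 12 of 17 higher and the ERK genes at the bottom with 13 of 21 lower.

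Glycolysis and hypoxia genes had 17 of 30 tested members higher and 2 lower at t48 (median log2 fold change 0.28), and 4 lower with the cell line as a block. The list median was -0.28 for t6 against t0 and -0.06 for t48 against t0, comparisons that share libraries with that of t48 and t6. The lower member Pfkp lost its call without line 6 or 7, without either library of line 7 or without the t48 library of line 6 (adjusted p = 0.182 without line 7). Ndufa4l2, a hypoxia-induced mitochondrial protein (ENSMUSG00000040280, GRCm38 chromosome 10, 127514967 to 127517154, plus strand), was at 75.9, 74.3 and 83.9 CPM at t48 and 8.74, 6.96 and 8.69 CPM at t6 (log2 fold change 3.26, SE 0.15, adjusted p = 1.11e-08). Its t0 values of 82.04, 63.4 and 89.9 CPM lay near those at t48, so t6 was the low label. Pfkfb3, which makes the activator of phosphofructokinase, averaged 45.7 ± 1.37 CPM at t48 and 22.7 ± 1.92 CPM at t6 (log2 fold change 1.01, SE 0.07, adjusted p = 5e-07). Hk2, a hexokinase, averaged 67.9 ± 1.69 CPM at t48 and 44.6 ± 2.07 CPM at t6 (log2 fold change 0.61, SE 0.06, adjusted p = 1.25e-05). Egln3, an oxygen-sensing prolyl hydroxylase, fell by 0.58 on the log2 scale.

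Mitochondrial gene sets had few called members. Of 27 nuclear respiratory chain genes 5 were higher and 2 lower, near or under the 15.7% and 14.5% of all genes, and 2 were higher without line 6 and 3 without line 16 or the t48 library of line 7. Ndufs3, of complex I, rose by a log2 fold change of 0.32, while Sdha of complex II and Uqcrfs1 of complex III fell by 0.32 and 0.36 on that scale. None of the 13 mRNAs of mitochondrial DNA was called, and mt-Nd5, the one with the smallest p, averaged 491 ± 23.8 CPM at t48 and 578 ± 8.45 CPM at t6 (adjusted p = 0.106).

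Sterol synthesis was a list that went down, with 12 of 24 tested members lower and none higher at t48 (median log2 fold change -0.27), though 1 was higher without the t48 library of line 16, without the t6 library of line 6, or with the cell line as a block. Idi1, an isomerase of the cholesterol route, was at 56.5, 69.5 and 50.4 CPM at t48 and 101, 109 and 97.4 CPM at t6 (log2 fold change -0.80, SE 0.11, adjusted p = 0.000134). Msmo1, a sterol oxidase, fell by 0.37 on the log2 scale, and its t0 mean of 94.5 CPM was above both. Fatty acid synthesis was split, with 4 of 14 members higher and 3 lower, and 1 lower without line 6. The 4 and 3 are 28.6% and 21.4%, against 15.7% and 14.5% of all genes. The desaturases Fads2 and Fads1 rose by log2 fold changes of 0.71 and 0.46, and Acly, which supplies acetyl-CoA, averaged 228 ± 8.97 CPM at t48 and 305 ± 5.46 CPM at t6 (log2 fold change -0.42, SE 0.05, adjusted p = 4.89e-05). Among 10 lipid storage and PPAR genes, 3 were higher and 4 lower, and 2 were lower without line 6, without its t6 library or without the t48 library of line 16. Lpl, lipoprotein lipase, was at 4.10, 3.56 and 5.19 CPM at t48 and 0.327, 0.258 and 0.320 CPM at t6 (log2 fold change 3.79, SE 0.30, adjusted p = 1.03e-06). Fabp5, a fatty acid carrier, and Dgat2, which makes triglycerides, rose by log2 fold changes of 1.06 and 1.45, while Plin2, a lipid droplet coat protein, and Angptl4, an inhibitor of lipoprotein lipase, fell by 0.35 and 0.50 on that scale.

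The ATF4 stress response, which supplies amino acids and copes with unfolded protein, had 13 of 23 tested members higher and none lower at t48 (median log2 fold change 0.28). It had 6 higher without line 7 or line 16, 7 without line 6, and 8 without the t48 library of line 16 or the t6 library of line 6, while 1 was lower with the cell line as a block. Atf4 itself was at 1134, 1124 and 1145 CPM at t48 and 902, 897 and 904 CPM at t6 (log2 fold change 0.33, SE 0.06, adjusted p = 0.000839). Trib3, a pseudokinase under ATF4, averaged 126 ± 5.27 CPM at t48 and 76.2 ± 2.69 CPM at t6 (log2 fold change 0.72, SE 0.11, adjusted p = 0.000344). Chaperones of the endoplasmic reticulum had 10 of 18 members higher and none lower, and 5 or 6 were higher without any 1 line, without the t48 library of line 6 or without the t6 library of line 7. Hspa5, which encodes BiP, averaged 1754 ± 36.02 CPM at t48 and 1369.8 ± 61 CPM at t6 (log2 fold change 0.36, SE 0.06, adjusted p = 0.000511). Pdia3, a disulfide isomerase, and Xbp1, a factor of the unfolded protein response, rose by log2 fold changes of 0.28 and 0.39. These changes were small in size, under 1.5-fold for Hspa5, Pdia3 and Xbp1.

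Called genes of G1/S and G2/M were lower with 1 exception. Of 25 G1/S and replication genes 12 were lower and 1 higher (median log2 fold change -0.25), and of 23 G2/M genes 8 were lower and none higher (median log2 fold change -0.20). With the cell line as a block 19 and 17 were lower, where 22.1% of all genes were, and 1 and 2 were higher. Without line 7 or without its t6 library, 7 of the G1/S genes were lower, and without line 6 or without the t6 library of line 7, 5 of the G2/M genes were. Tyms, thymidylate synthase, averaged 67.6 ± 2.19 CPM at t48 and 87.4 ± 2.45 CPM at t6 (log2 fold change -0.37, SE 0.05, adjusted p = 0.00014). Birc5, the mitotic protein survivin, was at 136, 133 and 136 CPM at t48 and 184, 191 and 183 CPM at t6 (log2 fold change -0.46, SE 0.05, adjusted p = 1.95e-05). The mitotic cyclin genes Ccna2 and Ccnb1 fell by 0.42 and 0.47 on the log2 scale. Ccne1, cyclin E1, was the exception, with a log2 fold change of 0.30, and its call was lost with the length offset (adjusted p = 0.0893). The CDK inhibitor gene Cdkn1b averaged 31.6 ± 3.98 CPM at t48 and 22.4 ± 0.788 CPM at t6 (log2 fold change 0.50, SE 0.11, adjusted p = 0.00472). Cdkn1a, the inhibitor p21, was at 37.9, 32.3 and 42.7 CPM at t48 and 39.7, 25.2 and 46.6 CPM at t6 with overlapping groups (adjusted p = 0.978). Among 19 p53 pathway genes 3 were higher and 2 lower (15.8% and 10.5%, near or under the shares of all genes, and the call of Ei24, a lower one, was lost in 7 of 9 leave-outs), and Gadd45a, a stress-induced growth arrest gene, rose by a log2 fold change of 0.76.

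Called inflammatory genes were mostly lower. Of 15 chemokine and NF-kB output genes 7 were lower and none higher at t48 (median log2 fold change -0.32), with 2 higher with the cell line as a block. Cx3cl1, the chemokine fractalkine, was at 42.5, 42.2 and 45.4 CPM at t48 and 82.2, 100.2 and 102 CPM at t6 (log2 fold change -1.13, SE 0.08, adjusted p = 5.09e-07), while t0 lay at 45.9, 53.7 and 50.7 CPM. Cxcl10, an interferon-induced chemokine, was at 5.80, 5.92 and 7.42 CPM at t48 and 11.2, 16.8 and 16.3 CPM at t6 (log2 fold change -1.21, SE 0.16, adjusted p = 6.44e-05). Csf1, the macrophage growth factor, averaged 600.2 ± 5.22 CPM at t48 and 764 ± 21.4 CPM at t6. Interferon-stimulated genes had 7 of 23 members lower and 1 higher, and between 2 and 4 were lower without line 6 or 7, without the t6 library of line 6 or 7, or without the t48 library of line 6 or 16. The higher member, Xaf1, lost its call in 5 of 9 leave-outs (adjusted p = 0.164 without line 16). Ddx58, which encodes the RNA sensor RIG-I, averaged 59.4 ± 1.62 CPM at t48 and 82.4 ± 5.28 CPM at t6 (log2 fold change -0.47, SE 0.07, adjusted p = 0.00036). MHC class I presentation was split, with 4 of 16 members higher and 4 lower, while 2 were lower without any 1 line, without either library of line 6 or without the t6 library of line 7, and 2 were higher without line 7. The immunoproteasome subunit Psmb8 and the peptide transporter Tap1 rose by log2 fold changes of 0.72 and 0.51, while Tapbp, the tapasin gene, fell by 0.37 on that scale.

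Signals between cells changed in both directions. Wnt output genes had 6 of 14 members higher and 2 lower (median log2 fold change 0.52). Lgr4, a receptor for R-spondins, was at 55.9, 54.9 and 53.7 CPM at t48 and 16.1, 13.6 and 15.9 CPM at t6 (log2 fold change 1.85, SE 0.09, adjusted p = 8.39e-09). Nkd1, a feedback inhibitor of Wnt, averaged 12.8 ± 1.70 CPM at t48 and 3.07 ± 0.136 CPM at t6 (log2 fold change 2.06, SE 0.16, adjusted p = 1.33e-06), and Dkk3, of the Dickkopf family, rose by a log2 fold change of 0.78. Lef1, the nuclear Wnt partner, went the other way, at 2.17, 2.54 and 3.13 CPM at t48 and 8.04, 6.65 and 7.55 CPM at t6 (log2 fold change -1.51, SE 0.17, adjusted p = 2.01e-05), and 1.95, 1.35 and 2.07 CPM at t0. Among 19 TGF-beta genes 5 were higher and 4 lower (26.3% and 21.1%, against 15.7% and 14.5% of all genes). With the cell line as a block 8 were higher and 5 lower (42.1% and 26.3%, against 22.3% and 22.1% of all genes). The ligands split, since Tgfb3 and Tgfb2 rose by log2 fold changes of 0.81 and 1.17 while Tgfb1 fell by 0.36 on that scale. Tgfbi, a matrix protein induced by TGF-beta, averaged 573 ± 12.3 CPM at t48 and 387 ± 16.5 CPM at t6. Of 14 BMP and Id genes 5 were higher and 1 lower, with 3 higher without line 6 or 7 or without 3 of the single libraries (t48 of lines 6 and 16, t6 of line 7), and 2 were lower without the t48 library of line 16. Bmp4, a BMP ligand, averaged 18.3 ± 3.30 CPM at t48 and 8.01 ± 0.630 CPM at t6 (log2 fold change 1.19, SE 0.17, adjusted p = 0.000214).

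Adhesion and guidance genes changed in both directions. Of 16 adhesion molecules 5 were higher and 6 lower, and 3 were higher without line 7 or 16 or without any single library of these lines. Mcam, a melanoma adhesion molecule, was at 7.78, 6.05 and 9.48 CPM at t48 and 2.53, 1.75 and 2.88 CPM at t6 (log2 fold change 1.69, SE 0.24, adjusted p = 0.000134), and L1cam, a neural adhesion molecule, at 1.37, 1.29 and 1.48 CPM at t48 and 0.281, 0.0516 and 0.183 CPM at t6. The protocadherins Pcdh7 and Pcdh18 fell by 0.99 and 0.72 on the log2 scale. Guidance genes had 8 of 23 members lower and 2 higher, with 5 lower without line 6 or line 16 and 5 higher with the cell line as a block. Robo2, a receptor for Slit proteins, was at 19.4, 17 and 17.96 CPM at t48 and 55.2, 40.3 and 47.4 CPM at t6 (log2 fold change -1.39, SE 0.12, adjusted p = 1.37e-06), close at t48 to its t0 values of 18.8, 15.5 and 18.7 CPM. Sema3c, a secreted semaphorin, averaged 343 ± 24.8 CPM at t48 and 159.9 ± 9.85 CPM at t6 (log2 fold change 1.10, SE 0.07, adjusted p = 7.45e-08). Integrins had 3 of 14 members higher and 4 lower (21.4% and 28.6%, against 15.7% and 14.5% of all genes). Itga6, a laminin receptor chain, averaged 58.8 ± 5.93 CPM at t48 and 128 ± 16.4 CPM at t6 (log2 fold change -1.12, SE 0.13, adjusted p = 4.76e-05), and Itga9 was at 2.07, 2.45 and 2.38 CPM at t48 and 0, 0.103 and 0.137 CPM at t6.

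Factors of melanoma dedifferentiation and mesenchymal state were divided, with 5 of 23 higher and 5 lower (21.7% each, against 15.7% and 14.5% of all genes). Snai2, Zeb2 and Prrx1, transcription factors of mesenchymal cells, rose by log2 fold changes of 0.70 (SE 0.09), 0.40 (SE 0.06) and 0.38 (SE 0.07). Ngfr, a neural crest receptor, was at 0.613, 0.445 and 0.424 CPM at t48 and 1.73, 1.65 and 2.97 CPM at t6 (log2 fold change -2.09, SE 0.30, adjusted p = 0.000174), low under both labels. Clock genes had 4 of 17 members higher and 1 lower (23.5% and 5.88%, against 15.7% and 14.5% of all genes). With the cell line as a block 8 were higher and 2 lower (47.1% and 11.8%, against 22.3% and 22.1% of all genes). The member lower without the block, Clock, lost its call in 5 of 9 leave-outs (adjusted p = 0.145 without line 6). Rora, a nuclear receptor of the clock, was at 5.04, 7.48 and 3.60 CPM at t48 and 0.795, 0.567 and 0.503 CPM at t6 (log2 fold change 3.10, SE 0.33, adjusted p = 1.12e-05). NRF2 targets had 5 of 17 lower and none higher, with 2 lower without line 6 or 7, 3 without the t48 library of line 7, and 2 higher with the cell line as a block. Among them was Taldo1 of the pentose phosphate pathway (log2 fold change -0.38, SE 0.07, adjusted p = 0.00084). The cathepsin genes Ctsz and Ctsl moved in opposite directions (log2 fold changes 0.51 and -0.64).

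Levels at t0 placed several of these differences. Postn, which encodes the matrix protein periostin and is shown for its size and level among the matricellular genes, was at 167, 93.6 and 176 CPM at t0, 47.4, 27.5 and 44.3 CPM at t6 and 593, 452 and 576 CPM at t48, lowest at t6 in every line (log2 fold change 3.76, SE 0.28, adjusted p = 1.25e-05 for t48 against t6). Ccn5, a matricellular relative of Ccn2, averaged 21.4 ± 6.99 CPM at t0, 2.07 ± 0.327 CPM at t6 and 18.8 ± 7.88 CPM at t48. Ndrg1, a hypoxia and growth arrest gene, averaged 388 ± 73.1 CPM at t0, 225 ± 34.3 CPM at t6 and 463 ± 5.84 CPM at t48. For Ndufa4l2, Fndc1, Ccn5 and Lama4 the t48 mean was thus near the t0 mean and t6 stood apart, while for Igfbp5, Fmod, Tagln, Nos1 and Cntn2 t48 stood apart from both. Unc5c, Areg and Hmga2 were highest at t6 in every line, with t0 between t6 and t48. The 3 genes Postn, Ccn5 and Ndrg1 were chosen after their values were seen. Comparisons with t0 share libraries with the comparison of t48 and t6, so the levels are set side by side and no overlap of calls is given.

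**Figure D5:**
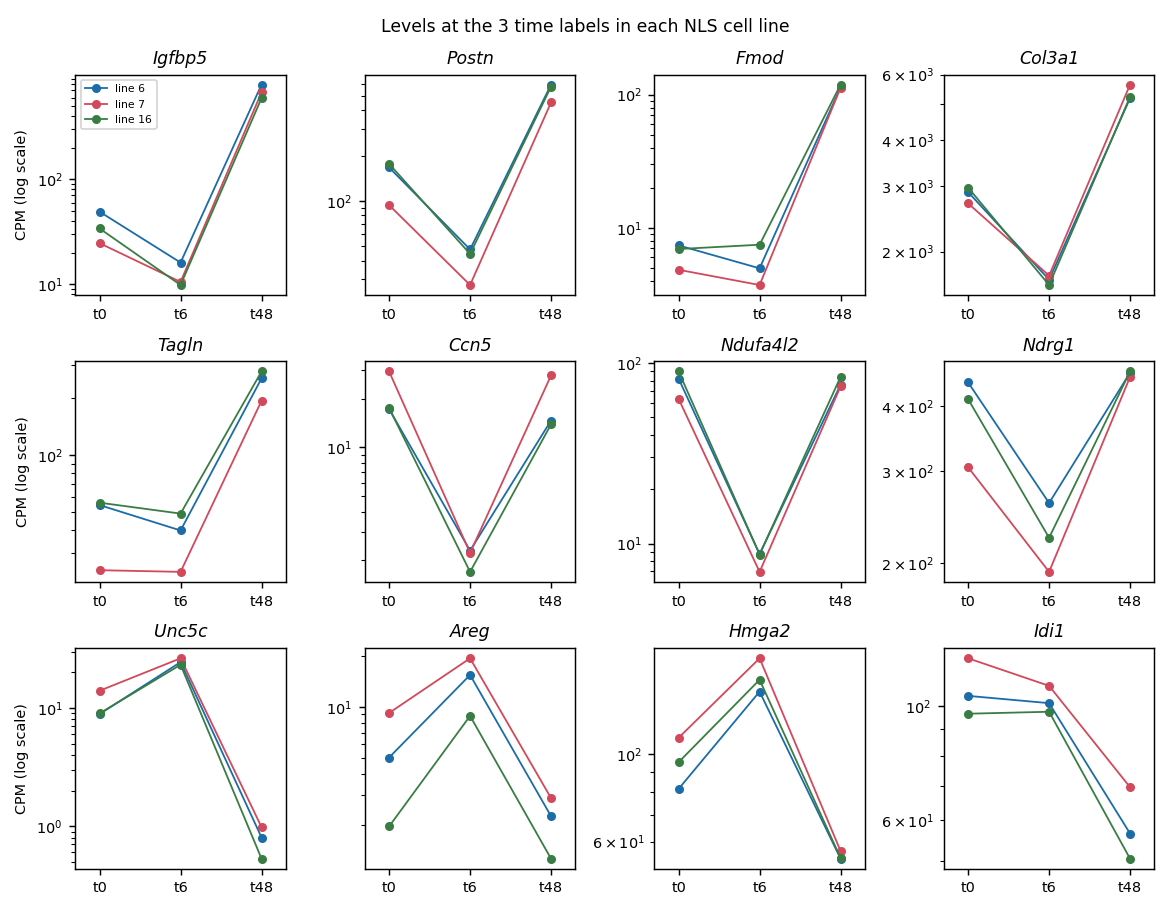
CPM on log y axes at t0, t6 and t48 in lines 6, 7 and 16 for 12 genes named in the text. The upper rows show genes higher at t48 than at t6, among which Ccn5, Ndufa4l2 and Col3a1 have their low point at t6 in all 3 lines, and the bottom row shows genes lower at t48.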

How the data were processed

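PolyA RNA of 13 samples of melanoma cell lines was sequenced from stranded paired-end libraries, per the labels' protocols. The deposited files give, for each library, the authors' estimated counts per Ensembl transcript, with the submitters' processing notes naming Salmon 1.2.0 and the build GRCm38. The counts were summed over the transcripts of each gene by GENCODE annotation of GRCm38 (115977 of 116546 transcripts matched, and the others held 0.121% to 0.165% of reads) and rounded to whole numbers. Reads that fit several near-identical genes are shared among them by the quantification, so such genes are uncertain. TPM values, which correct for transcript length and were also deposited by the authors, were used beside CPM for Col3a1 and Col1a1 alone. Marker sums and other levels are in CPM, without that correction.

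Genes at 1 CPM or more in at least 3 of the 6 compared libraries were tested with edgeR 4.0.16 (quasi-likelihood, TMM scaling, R 4.3.3), with 1 mean for each of 5 groups over 13 libraries and no block. All adjusted p-values are Benjamini-Hochberg values over the 11691 genes, with a threshold of 0.05, and CPM are on TMM library sizes. The SE of a log2 fold change was taken from its F value. The fit was also run on simulated counts with known fold changes and no cell line effect. That run therefore says nothing of how the fit handles libraries paired by line. Same-numbered libraries are the same cell line, and their deviations from the group means correlated (r of 0.275, 0.347 and 0.366 for lines 6, 7 and 16, against -0.304 to -0.0563 between lines), so the numbers pair the libraries, and a fit with the line as a block was run. No 2 libraries of a group agreed within sampling noise. Depth over all 13 libraries was 18512887 to 22584628 reads, and intervals and floors cover counting error only.

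The 50 gene lists, 1014 entries of which 860 were tested, and the rule for named genes were chosen with earlier results of these data known. The rule takes the 10 largest increases and decreases by fold, the 5 by level, up to 3 members in each direction with the smallest p from each list, and 8 set genes. Genes taken by fold or by level also had to move the same way in every line. Alternatives were other scalings, filters, library sets, DESeq2 1.42.0, limma 3.58.1 (voom), the block, and leaving out each library or cell line.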

Additional observations from a re-analysis of the deposited data

How the results depend on the processing

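The count of called genes was 3534, and it was 3590 with DESeq2, 3568 with limma-voom, 3360 with the 6 libraries alone, 3279 with the 9 NLS libraries, 3540 with DESeq2 size factors, 3095 with a transcript length offset, 3673 of 13044 with filterByExpr and 3400 of 20080 without a filter. Scaling by library totals gave 3606, of which 46.7% were higher at t48, against 52.0% with TMM (the median log2 fold change of all genes was then -0.02). The cell line as a block gave 2585 lower genes over 13 libraries. Within the 6 libraries it gave 5463 called, 2709 lower, and 5398 called with the same direction in all 3 lines. The block lost none of the 219 calls among named genes. Leaving out 1 library or 1 line gave 2252 to 3219 called, 1222 to 1650 higher and 1030 to 1569 lower, and 496 to 547 at least 2-fold changed, and 47 of the 219 named calls were lost in at least 1 of these fits. Named genes that changed sign were never called. Adcy10 had log2 fold changes of 0.0046 and 0.00537 with the block (13 and 6 libraries), 0.182 with limma-voom, 0.55 without the t48 library of line 16, 0.995 without the t6 library of line 6 and 0.157 without line 6. Nr4a1 had 0.177 and 0.235 without the t48 library of line 16 and the t6 library of line 6, and Yap1 had 0.0216 with the length offset. Cdkn1a had -0.00758 with library totals, -0.0844 without the t48 library of line 16, -0.198 without the t6 library of line 7 and -0.0974 without line 7. Over the leave-outs, log2 fold changes ran from -0.868 to 0.995 for Adcy10, -0.472 to 0.235 for Nr4a1 and -0.198 to 0.21 for Cdkn1a. The cause of these shifts was not tested. With 3 libraries a group and 18902460 to 22353964 reads each, genes under 1 CPM were not tested, and a read count of 0 sets only a bound.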

Other observations

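Retrocopies of ribosomal protein and tropomyosin genes were outside the gene lists and are given because their values stood out when seen. Rpl34-ps1, a processed copy of the ribosomal protein gene Rpl34, was at 3.68, 2.76 and 3.07 CPM at t48 and 39.9, 36.98 and 39.6 CPM at t6 in lines 6, 7 and 16 (log2 fold change -3.61), and at 6.48, 5.14 and 5.19 CPM at t0. In LacZ lines 10 and 12 it was at 61.3 and 52.8 CPM at t48 and 48.1 and 50.1 CPM at t0. Tpm3-rs7, a copy of the tropomyosin gene Tpm3, was at 26.1, 25.2 and 24.3 CPM at t48 and 111, 118 and 121 CPM at t6, and at 15.1, 16.6 and 18.7 CPM at t0. In LacZ lines it was at 151 and 147 CPM at t48 and 127 and 137 CPM at t0. The Rps3a copies Rps3a3 and Rps3a2 averaged 23.3 and 40.9 CPM at t48, 83.7 and 129 CPM at t6, and 18.8 and 28.7 CPM at t0. In LacZ lines 10 and 12, Rps3a3 was at 106 and 106 CPM at t48 and 80.4 and 92.9 CPM at t0, and Rps3a2 at 159 and 164 CPM at t48 and 124 and 146 CPM at t0. For all 4 copies the t6 values lay nearer to the LacZ values, and the t48 values nearer to those at t0. Whether the t6 libraries differ from the other NLS libraries in more than the time label was not tested. This holds here and for the genes above for which t6 stood apart. Of the parent genes, Tpm3 was lower at t48 (log2 fold change -0.34, SE 0.04, adjusted p = 5.15e-05), in the direction of its copy. Rps3a1 was not called (log2 fold change 0.04, adjusted p = 0.56). Rpl34 was not called either (log2 fold change 0.14, adjusted p = 0.144), but was called higher in the blocked fit, which has cell line as a term (adjusted p = 0.0283). The quantification shares reads between a parent and its copies, so these values are uncertain.

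The imprinted genes Igf2, Mest and Plagl1 were higher at t48, but Igf2 and Mest were named from among genes higher at t48. Plagl1, a zinc-finger factor, was picked after its values were seen. It averaged 1.40 ± 0.179 CPM at t48 and 0.423 ± 0.198 CPM at t6 (log2 fold change 1.70, SE 0.38, adjusted p = 0.00379). The shared direction of these genes follows from that choice and says nothing of imprinted genes as a group. No list of imprinted genes was tested.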
